A study of Homo sapiens with 9 samples.

Results

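The genes of the eukaryotic translation initiation factors were followed on 9 exon arrays from human cells. They were chosen by symbol, as genes whose name begins with EIF1 to EIF6, without the EIF2AK kinases, the EIF4EBP genes, EIF4ENIF1, EIF4A2, EIF4A3 and pseudogenes, and only probe sets assigned to exactly 1 symbol were used. This gave 44 genes of 19426 on the array, of which 42 could be measured at gene level among 16748 measured genes. EIF3C kept 1 probe set of its own, and EIF1AY kept 2, so neither had a gene level. The cells were Flip-In-293, a derivative of the embryonic kidney line HEK293 that carries an integration site for transgenes. All were infected with lentivirus and harvested 10 days later, and they differed in the short hairpin RNA that the virus expressed. The control virus carried a non-silencing hairpin, and the other viruses carried a hairpin against CPSF3, the endonuclease that cuts pre-mRNA ahead of polyadenylation, or against RBFOX2, a regulator of alternative exons. Each group had 3 arrays. Titles call the replicates biological whereas the series text calls them technical, so the p-values rest on the variation among these arrays, some or all of which may be technical.

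Initiation factors bring the initiator tRNA, the mRNA and both ribosomal subunits together at a start codon. The factor eIF2 carries the initiator tRNA as a complex with GTP, eIF2B recharges eIF2 with GTP after each round, and eIF1, eIF1A and eIF3 hold the small subunit in a state that can scan the mRNA. The cap-binding complex of eIF4E, the scaffold eIF4G and the helicase eIF4A loads mRNA, eIF5 triggers GTP hydrolysis by eIF2 when a start codon is found, and eIF5B joins the large subunit. Phosphorylation of eIF2 and sequestration of eIF4E by its binding proteins are the main points at which cells slow initiation.

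Values are log2 signals after RMA normalisation. A gene level is the median over the gene's kept probe sets (those at or above 6.97 on average, the median of all probe sets), and a difference of 1 on this scale is a doubling. Differences carry the SE of a limma fit to all 16748 genes, with 3 arrays per group, and a gene was called when its Benjamini-Hochberg adjusted p over all genes of the comparison was under 0.05. In these bulk samples a change in the level per cell cannot be told apart from a change in which cells were present. Median signals of the 9 arrays lay between 6.965 and 6.998. The CPSF3 transcript did not bear out the label of its arrays (a difference from control of -0.09 ± 0.16, adjusted p = 0.752 by limma), so the name arrays labelled CPSF3 knockdown is used for them. RBFOX2 was at 66.7% of control on the RBFOX2 knockdown arrays (-0.58 ± 0.12, adjusted p = 0.0617). Of the 9 markers listed for HEK293 cells 8 were measured, with summed linear signals (over the median of all probe sets of each gene, kept or not) of 7955 to 10141 on control arrays, 5566 to 5923 on the arrays labelled CPSF3 knockdown and 6663 to 7163 on the RBFOX2 knockdown arrays. VIM, ENO2, NEFL and KRT8 of that list were called lower on the arrays labelled CPSF3 knockdown (4 of 8, against 4.38% of all genes). NEFM and EYA1 differed there by -0.35 and 0.13 without overlap, and KRT18 and PAX2 by -0.15 and -0.08. These 4 were not called. ENO2 was also called lower on the RBFOX2 knockdown arrays (-0.92, adjusted p = 0.0255, limma), where VIM, NEFL and KRT8 differed by -0.42, -0.48 and -0.49 without overlap. That is 1 of 8 called, against 0.173% of all genes, and with ENO2 4 of 8 without overlap, against 14.1%. NEFM, KRT18, PAX2 and EYA1 overlapped with control there, with group means of 7.95, 9.97, 8.52 and 8.73 against 8.05, 10.13, 8.58 and 8.68. EYA1 was the only 1 of the 8 above control. Summed signals of 6 blood markers were 1379 to 1604, 1725 to 1846 and 1609 to 1791 in the same order, with LCP1 as the only called member. PTPRC, which defines blood cells, had group means of 4.54, 4.56 and 4.70 over all its 47 probe sets, and of 8.53, 9.00 and 8.87 over the 5 that were kept, on the arrays labelled CPSF3 knockdown, the RBFOX2 knockdown arrays and the control arrays. It was the only 1 of the 6 that was lower than control on the arrays labelled CPSF3 knockdown (-0.34 at gene level). LCP1, SPI1, CD14, HBB and CD3E differed there by 0.39, 0.15, 0.12, 0.11 and 0.01. Of the measured fibroblast, endothelial and hepatocyte markers 0 were called by limma in any comparison, with at most 2 of a list at an unadjusted p under 0.05 in each. The part of these markers in the results below was not tested.

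On the arrays labelled CPSF3 knockdown, 9 of the 42 measured initiation factor genes differed from control. The ribosome-joining factor EIF5B, the scaffold EIF4G3 and the GTPase activator EIF5 rose most, by 1.82- to 1.85-fold. Smaller rises were those of EIF4G1, EIF3J, EIF2S1, EIF3B and EIF2B3, and EIF1, which guards start codon selection, was the only member that fell. The 9 calls are 21.4% of the measured members, against 14.4% of all genes in this comparison. Rises were called for 19.0% of members and 10.0% of all genes, and falls for 2.38% and 4.38%. The median difference over the members was 0.11, against 0.01 over all genes. Arrays of the groups did not overlap for 18 of the 42 members (42.9%), 13 higher and 5 lower, against 31.1% of all genes. The number of called members was 4 without control replicate 1, 4 without control replicate 2, 3 without CPSF3 replicate 1 and 3 without CPSF3 replicate 2. Of all 16748 genes 1082, 1205, 965 and 1466 were called in the same order, against 2409 with all arrays. Without a filter on low probe sets 4 of 42 members and 1710 of 18589 genes were called, shares that are close to each other. EIF5B, EIF4G3 and EIF5 were called in each of the 19 other settings tried. Counts within single factors, given below, cover at most 12 genes each. They are a description, to be read beside the 14.4% of all genes.

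**Figure D1:**
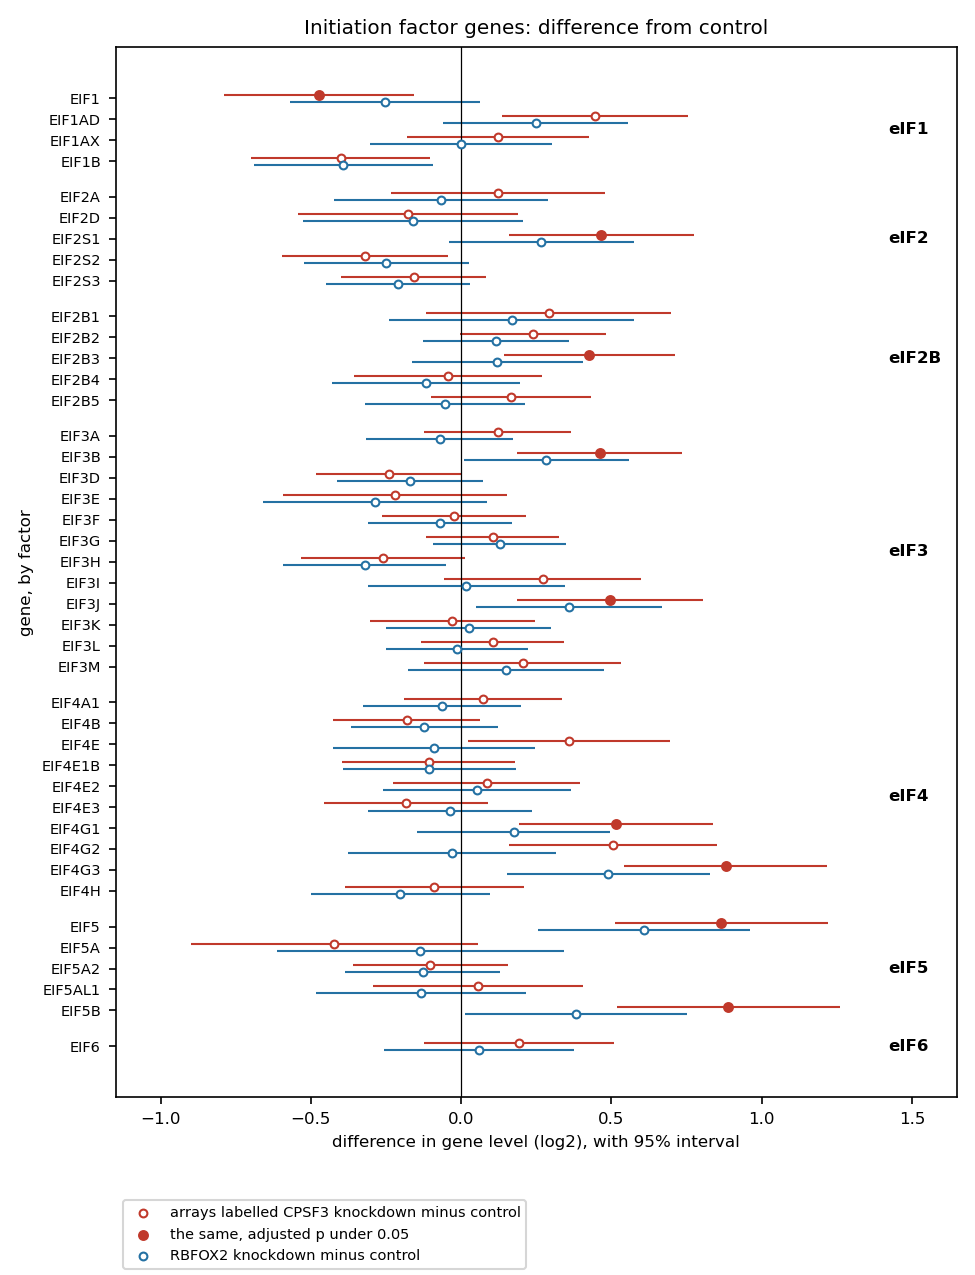
Differences in gene level from control (log2, horizontal axis) for the 42 measured initiation factor genes, grouped by factor, with 95% intervals from the fit, in red for the arrays labelled CPSF3 knockdown and in blue for the RBFOX2 knockdown arrays. Filled points passed an adjusted p of 0.05: 9 red points and 0 blue points, with EIF5B, EIF4G3 and EIF5 farthest to the right.

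The eIF5 genes held the largest rise. EIF5B, the GTPase that joins the large ribosomal subunit, was at 8.99, 8.64 and 9.30 on the control arrays, 10.10, 9.62 and 9.87 on the arrays labelled CPSF3 knockdown, and 9.29, 9.20 and 9.59 on the RBFOX2 knockdown arrays. The lowest array labelled CPSF3 knockdown lay above the highest control and above every RBFOX2 knockdown array, whereas control and RBFOX2 knockdown arrays overlapped. The rise over control was 0.89 ± 0.17, or 1.85-fold (adjusted p = 0.00587, limma), and 28 of the gene's 31 kept probe sets were higher at an unadjusted p under 0.05.

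EIF5, which makes eIF2 hydrolyse its GTP at the start codon, was at 9.45, 9.39 and 9.73 on control arrays, 10.43, 10.20 and 10.53 on the arrays labelled CPSF3 knockdown, and 9.90, 9.96 and 10.53 on the RBFOX2 knockdown arrays. All 6 arrays with a targeting hairpin lay above all 3 controls, and the third RBFOX2 knockdown array reached the level of the highest array labelled CPSF3 knockdown. The rise was 0.87 ± 0.16, or 1.82-fold (adjusted p = 0.00545, limma), with 22 of 27 probe sets higher at an unadjusted p under 0.05 and differences from -0.55 to 1.94 within the gene.

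The other genes named after eIF5 were not called. EIF5A, whose product carries the amino acid hypusine and acts mostly in elongation, differed by -0.42 ± 0.22, with control arrays at 11.13, 11.46 and 11.11 and arrays labelled CPSF3 knockdown at 10.49, 10.79 and 11.15. These values overlapped, and they come from the probe sets that match EIF5A alone. The array also holds 14 probe sets shared with the near-identical gene EIF5AL1. With those added, a step chosen after the data were seen, the difference was 0.17 ± 0.13 (adjusted p = 0.445, limma). The level of EIF5A is therefore uncertain in direction, as is that of EIF5AL1 (0.06 from 3 probe sets). The paralogue EIF5A2 differed by -0.10.

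Among the eIF4 genes, 2 of 10 measured members were called, both of them scaffolds. EIF4G3 was at 9.77, 9.51 and 10.11 on control arrays, 10.92, 10.58 and 10.54 on the arrays labelled CPSF3 knockdown, and 10.25, 10.16 and 10.45 on the RBFOX2 knockdown arrays. The 3 groups did not overlap, with the RBFOX2 knockdown arrays between the others. The rise on the arrays labelled CPSF3 knockdown was 0.88 ± 0.16, or 1.84-fold (adjusted p = 0.00436, limma), and 44 of 47 probe sets were higher at an unadjusted p under 0.05.

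EIF4G1, the main scaffold of the cap-binding complex, was at 10.64, 10.15 and 10.42 on control arrays, 11.15, 10.90 and 10.71 on the arrays labelled CPSF3 knockdown, and 10.73, 10.43 and 10.57 on the RBFOX2 knockdown arrays. The lowest array labelled CPSF3 knockdown was above the highest control by less than the spread within either group. The rise was 0.51 ± 0.15, or 1.43-fold (adjusted p = 0.0356, limma), with 35 of 54 probe sets higher and 1 lower at an unadjusted p under 0.05. The call was lost without control replicate 2, CPSF3 replicate 1 or CPSF3 replicate 2, without a filter on low probe sets, and when only the compared groups were fitted.

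EIF4G2, a related scaffold that lacks the eIF4E binding site and supports initiation that does not use the cap, was at 10.42, 10.72 and 10.25 on control arrays, 11.15, 10.84 and 10.90 on the arrays labelled CPSF3 knockdown, and 10.60, 10.09 and 10.60 on the RBFOX2 knockdown arrays. The arrays labelled CPSF3 knockdown were the 3 highest of the 9. The difference from control was 0.50 ± 0.16 and missed the threshold (adjusted p = 0.0513, limma). Its 39 probe sets did not move together: 27 were higher and 4 lower at an unadjusted p under 0.05, from -1.28 to 1.16.

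The cap-binding protein EIF4E was at 9.05, 9.06 and 8.61 on control arrays and 9.31, 9.22 and 9.26 on the arrays labelled CPSF3 knockdown. These did not overlap, and the difference of 0.36 ± 0.16 was not called (adjusted p = 0.148, limma). It was -0.09 without a filter on low probe sets and 0.05 with the upper-quartile filter, so its direction depended on the probe sets used. Its relatives EIF4E2, EIF4E3 and EIF4E1B differed by 0.08, -0.18 and -0.11. The helicase EIF4A1 differed by 0.07 and its stimulating partners EIF4B and EIF4H by -0.18 and -0.09, and none of these genes was called. Of the probe sets of EIF4A1, 14 more are shared with CD68 or SNORA67 and were left out.

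The large scaffold eIF3 had 2 called members of 12 measured. EIF3J, a loosely attached subunit that sits near the decoding site, was at 9.44, 9.14 and 9.44 on control arrays, 9.97, 9.69 and 9.85 on the arrays labelled CPSF3 knockdown, and 9.52, 9.59 and 10.00 on the RBFOX2 knockdown arrays. All targeting hairpin arrays were above all controls. The rise on the arrays labelled CPSF3 knockdown was 0.50 ± 0.14, or 1.41-fold (adjusted p = 0.0356, limma), with 11 of 18 probe sets higher at an unadjusted p under 0.05. The call was lost without control replicate 1 or 2, without any 1 of the 3 arrays labelled CPSF3 knockdown, without a filter, and with the upper-quartile filter, where the difference was 0.22.

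EIF3B, a core subunit that organises the complex, was at 9.95, 9.75 and 10.00 on control arrays, 10.53, 10.40 and 10.14 on the arrays labelled CPSF3 knockdown, and 10.27, 10.06 and 10.21 on the RBFOX2 knockdown arrays. Both targeted groups lay above the controls, and they overlapped each other. The rise on the arrays labelled CPSF3 knockdown was 0.46 ± 0.13, or 1.38-fold (adjusted p = 0.0288, limma). Its 35 probe sets were mixed, with 11 higher and 4 lower at an unadjusted p under 0.05 and a range from -0.94 to 0.60. With the mean over probe sets as gene level the difference was 0.15 and not called, and the call was also lost without a filter, without control replicate 1 or 2 and without CPSF3 replicate 1 or 2.

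The remaining eIF3 subunits stayed below the threshold. EIF3I, EIF3M, EIF3A, EIF3G and EIF3L differed by 0.27, 0.20, 0.12, 0.11 and 0.10. EIF3H, EIF3D, EIF3E, EIF3K and EIF3F differed by -0.26, -0.24, -0.22, -0.03 and -0.02. EIF3C, the other large core subunit, shares 29 probe sets with its near-identical copy EIF3CL. On the shared and own probe sets together, chosen after the data were seen, the pair was at 12.10, 11.93 and 12.06 on control arrays and 12.22, 11.98 and 11.92 on the arrays labelled CPSF3 knockdown. These overlapped, with a difference of 0.01 ± 0.12 (adjusted p = 0.972, limma).

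Of the eIF2 genes, EIF2S1 was called of 5 measured. It encodes the alpha subunit, the target of the stress kinases. It was at 10.21, 10.17 and 10.31 on control arrays, 10.71, 10.68 and 10.69 on the arrays labelled CPSF3 knockdown, and 10.22, 10.41 and 10.85 on the RBFOX2 knockdown arrays. The first 2 groups were tight and separate, whereas the RBFOX2 knockdown arrays spanned both. The rise was 0.47 ± 0.14, or 1.38-fold (adjusted p = 0.0443, limma), and all 14 probe sets were higher on average, of which 7 had an unadjusted p under 0.05. The call was lost without control replicate 1 or 2, without any 1 of the arrays labelled CPSF3 knockdown, without RBFOX2 replicate 2 and without a filter.

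The beta subunit EIF2S2 had a difference of the opposite sign that was not called. It was at 10.44, 10.53 and 10.19 on control arrays and 10.13, 10.14 and 9.92 on the arrays labelled CPSF3 knockdown, without overlap (-0.32 ± 0.13, adjusted p = 0.116, limma). The gamma subunit EIF2S3, which binds GTP and the tRNA, differed by -0.16. EIF2A and EIF2D, which can deliver initiator tRNA without eIF2, differed by 0.12 and -0.18.

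In the exchange factor eIF2B, 1 of 5 subunits was called. EIF2B3, the gamma subunit, was at 9.29, 9.08 and 9.23 on control arrays, 9.86, 9.63 and 9.38 on the arrays labelled CPSF3 knockdown, and 9.39, 9.19 and 9.38 on the RBFOX2 knockdown arrays. CPSF3 replicate 3 was close to the highest control. The rise was 0.43 ± 0.13, or 1.34-fold (adjusted p = 0.046, limma), and the call was lost in 11 of 19 other settings, among them the removal of control replicate 1 or 2, of CPSF3 replicate 1 or 2, or of any 1 RBFOX2 knockdown array. EIF2B1, EIF2B2, EIF2B5 and EIF2B4 differed by 0.29, 0.24, 0.17 and -0.04.

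The eIF1 genes moved in both directions. EIF1 was at 12.61, 12.54 and 12.33 on control arrays, 11.83, 11.89 and 12.33 on the arrays labelled CPSF3 knockdown, and 12.08, 12.21 and 12.42 on the RBFOX2 knockdown arrays. CPSF3 replicate 3 was level with the lowest control to 2 decimals. EIF1 fell by 0.47 ± 0.15 on the log2 scale (adjusted p = 0.0459, limma), and 0 of its 11 probe sets were higher on average. The call was lost without control replicate 1 or 2, CPSF3 replicate 1 or 2, or RBFOX2 replicate 2, with the upper-quartile filter, and when only the compared groups were fitted.

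The paralogue EIF1B was at 10.72, 10.43 and 10.32 on control arrays, 10.31, 10.04 and 9.92 on the arrays labelled CPSF3 knockdown, and 10.01, 10.23 and 10.06 on the RBFOX2 knockdown arrays. Every targeting hairpin array was below every control, though by as little as the last digit, and the difference of -0.40 ± 0.14 was not called (adjusted p = 0.0693, limma). EIF1AD, a gene related to eIF1A by sequence, differed by 0.44 ± 0.14 (adjusted p = 0.0538, limma). EIF1AX, the X-linked eIF1A gene, differed by 0.12 over its 4 own probe sets and by 0.26 ± 0.12 when 13 probe sets shared with EIF1AP1 were added after the data were seen (adjusted p = 0.188, limma). EIF6, which keeps the ribosomal subunits apart, differed by 0.19 and was not called.

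**Figure D2:**
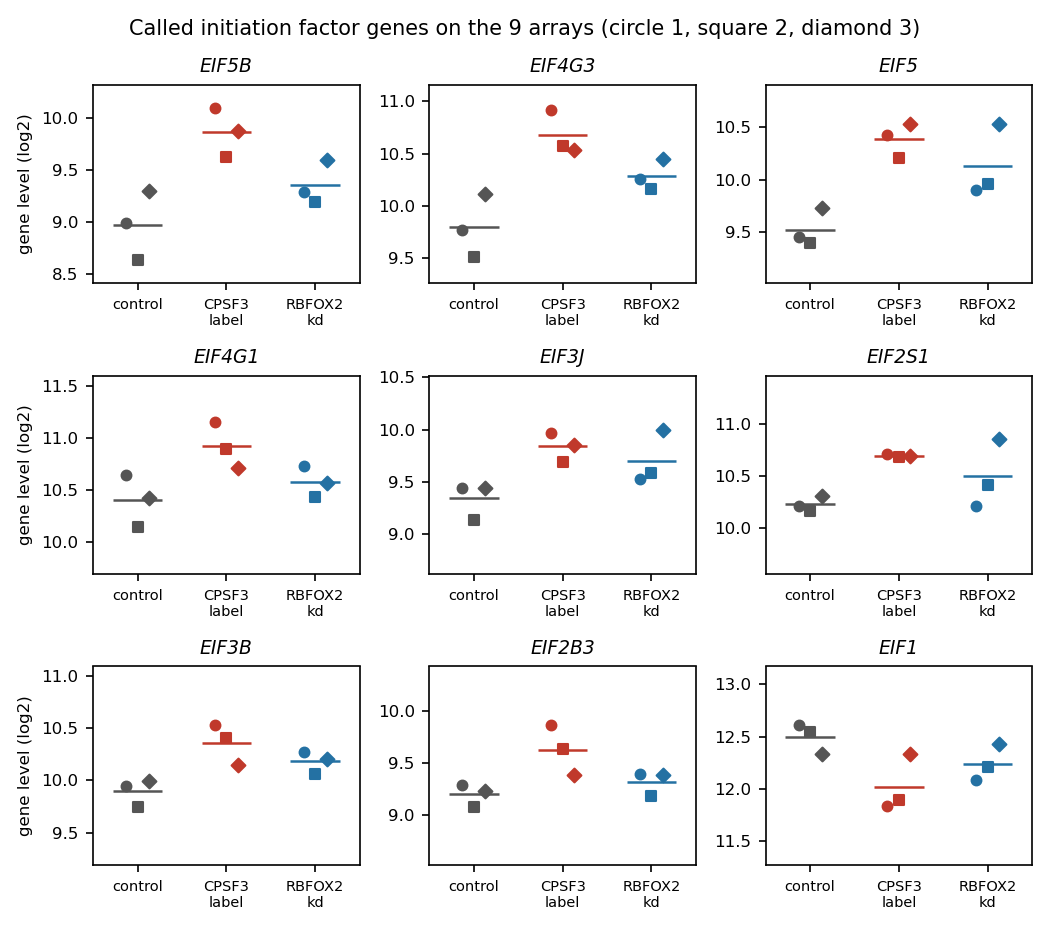
Gene level (log2, vertical axis) of the 9 called initiation factor genes on each of the 9 arrays, in 3 groups, with the replicate number given by the symbol and the group mean by the line. Arrays labelled CPSF3 knockdown stand above control for EIF5B, EIF4G3, EIF5, EIF4G1, EIF3J, EIF2S1, EIF3B and EIF2B3, and below for EIF1; the RBFOX2 knockdown means lie between the others.

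Single probe sets show how far a gene moved as a whole. The members had 851 kept probe sets, of which 225 were higher and 42 lower at an unadjusted p under 0.05 on the arrays labelled CPSF3 knockdown (31.4%, against 15.2% of all kept probe sets). The higher ones were 26.4%, against 9.06% of all. Most of these higher probe sets came from a few genes with many probe sets, since EIF4G3, EIF4G1, EIF5B, EIF4G2 and EIF5 alone gave 44, 35, 28, 27 and 22. The background is not a like set. Of the 692116 kept probe sets only 266506 carried a single gene symbol, as all those of the members did. At gene level, 33.3% of the members had an unadjusted p under 0.05 in this comparison, against 28.2% of all genes. For higher levels these shares were 26.2% and 18.4%. Probe sets of a gene read the same RNA and are not replicates of a condition.

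**Figure D3:**
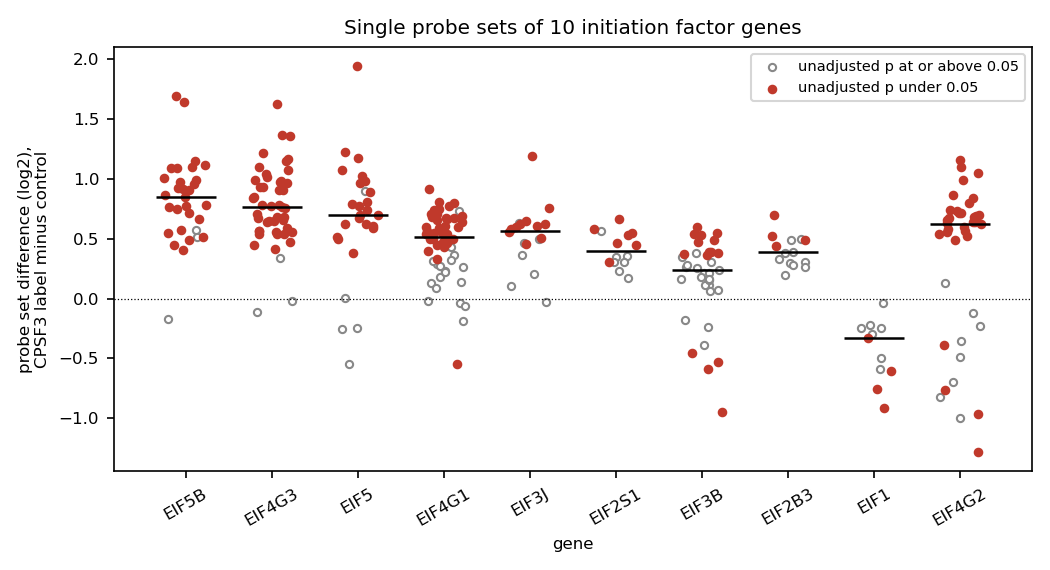
Difference of each kept probe set between the arrays labelled CPSF3 knockdown and control (log2, vertical axis) for the 9 called initiation factor genes and EIF4G2, with the line at the median of a gene's probe sets and filled points at an unadjusted p under 0.05. Nearly all probe sets of EIF5B and EIF4G3 are above 0, EIF3B and EIF4G2 have probe sets on both sides, and all 11 of EIF1 are below 0.

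On the RBFOX2 knockdown arrays, 0 of the 42 measured members were called by limma, against 0.173% of all genes, and 7 had an unadjusted p under 0.05. Those 7 are 16.7% of the members, near the 13.6% of all genes, and are listed as a description. The 5 higher ones were EIF5 (0.61 ± 0.16, adjusted p = 0.146), EIF4G3 (0.49 ± 0.16, adjusted p = 0.198), EIF5B (0.38 ± 0.17), EIF3J (0.36 ± 0.14) and EIF3B (0.28 ± 0.13). The 2 lower ones were EIF1B (-0.39 ± 0.14, adjusted p = 0.229) and EIF3H (-0.32). Arrays did not overlap with control for 7 members (16.7%), against 14.1% of all genes, and the median difference of the members was -0.05, against 0.03 over all genes. Both comparisons with control use the same 3 control arrays. Without control replicate 3, which lay nearer to the mean of the targeted arrays over all genes (root mean square distance 0.215) than the other controls did (0.320 and 0.368), EIF5, EIF4G3 and EIF3H were called, and 1546 genes were called in all. The control level of EIF4G3 in that replicate was 10.11, above the 9.77 and 9.51 of the others.

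Other members were near or below these sizes on the RBFOX2 knockdown arrays. EIF2S1 and EIF4G1, called on the arrays labelled CPSF3 knockdown, had 0.27 ± 0.14 and 0.17 ± 0.15 here. EIF2B3 and EIF1 had 0.12 ± 0.13 and -0.25 ± 0.15. The cap-binding EIF4E was at 8.71, 8.60 and 9.14 and the scaffold EIF4G2 differed by -0.03 ± 0.16, where the arrays labelled CPSF3 knockdown had given 0.36 and 0.50.

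The targeted groups were also set directly against each other, which uses no control array in the difference. Of the 42 members 0 were called by limma (0.4% of all genes were) and 6 had an unadjusted p under 0.05, all higher on the arrays labelled CPSF3 knockdown. That is 14.3%, near the 13.3% of all genes, and they too are listed as a description. They were EIF4G2 (0.53 ± 0.16, adjusted p = 0.188), EIF5B (0.51 ± 0.17, adjusted p = 0.224), EIF4E (0.45 ± 0.16, and 0.08 without a filter), EIF4G3 (0.39 ± 0.16), EIF4G1 (0.34 ± 0.15) and EIF2B3 (0.31 ± 0.13). The 95% intervals ran from 0.19 to 0.88 for EIF4G2, 0.14 to 0.88 for EIF5B and -0.09 to 0.61 for EIF5. Arrays did not overlap for 5 members (11.9%), against 20.4% of all genes, namely EIF5B, EIF4G3, EIF4G2, EIF4E and EIF3A. The median was 0.12, against 0.00 over all genes. A called difference from control in one targeted group and not in the other therefore did not amount to a called difference between those groups for any member.

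Exon signal, the value of a probe set minus the level of its gene on the same array, was examined for 841 probe sets in 40 member genes with at least 5 kept probe sets. None passed the adjusted threshold by limma on the arrays labelled CPSF3 knockdown (smallest adjusted p = 0.0716), and 108 had an unadjusted p under 0.05, 28 higher and 80 lower. That is 12.8%, against 12.7% of all exon probe sets. The higher ones were 3.33%, against 5.81% of all, and the lower ones 9.51%, against 6.85%. On the RBFOX2 knockdown arrays 0 passed (smallest adjusted p = 0.405) and 62 had an unadjusted p under 0.05 (7.37%, against 7.88%). Between the targeted groups 0 passed, with 26 at an unadjusted p under 0.05 (3.09%, against 4.24%). The position of probe sets within genes was not used here.

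Among the exon probe sets with the 5 smallest p, those of EIF2D, EIF4G1, EIF4G3 and EIF3B stood out on the arrays labelled CPSF3 knockdown. The exon signal of EIF2D probe set 2452878 was -2.40, -2.03 and -2.34 on control arrays, -1.16, -1.33 and -1.31 on the arrays labelled CPSF3 knockdown, and -1.61, -1.98 and -2.00 on the RBFOX2 knockdown arrays. The shift from control was 0.99 ± 0.15 on the arrays labelled CPSF3 knockdown, with a difference of 0.82 ± 0.21 in the probe set's own value and of -0.18 in the gene level. EIF4G1 probe sets 2655710 and 2655706 shifted by -1.06 ± 0.18 and -0.70 ± 0.13, and their own values differed by -0.55 and -0.19 where the gene level rose. Probe set 2655710 had an exon signal of -1.45, -1.59 and -2.12 on control arrays and -2.55, -2.33 and -2.41 on the RBFOX2 knockdown arrays. For 2655706 these were -0.80, -0.64 and -1.01, and -1.35, -1.14 and -1.34. The RBFOX2 knockdown arrays were therefore also below every control for both. EIF4G3 probe set 2400457 shifted by -0.90 ± 0.16 with a difference of -0.02 ± 0.19 in its own value, where the gene level rose. Its exon signal was 0, -0.40 and -0.43 on control arrays and lower, at -0.59, -0.63 and -0.97, on the RBFOX2 knockdown arrays. None of these shifts passed the adjusted threshold.

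EIF3B probe set 2987475 was low on both targeted groups. Its exon signal was -0.90, -0.74 and -1.45 on control arrays, -2.73, -2.38 and -2.19 on the arrays labelled CPSF3 knockdown, and -2.90, -2.08 and -2.46 on the RBFOX2 knockdown arrays. The shifts were -1.40 ± 0.25 and -1.45 ± 0.25 (adjusted p = 0.0824 and 0.405, limma), and control replicate 3 lay nearest to the targeted arrays. The own value of this probe set differed by -0.94 and -1.17 while the gene level of EIF3B was higher.

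On the RBFOX2 knockdown arrays the other leading exon probe sets were 2 of EIF3F and 1 each of EIF2A and EIF2B4. EIF3F probe set 3319312 had an exon signal of -3.32, -3.59 and -3.32 on control arrays and -4.23, -4.50 and -4.11 on the RBFOX2 knockdown arrays, a shift of -0.87 ± 0.14. EIF3F probe set 3319305 shifted by -1.30 ± 0.30, with control arrays spread from -3.95 to -2.59. EIF2A probe set 2647756 had -0.54, -0.58 and -0.51 on control arrays and -0.06, -0.07 and -0.13 on the RBFOX2 knockdown arrays, a tight pair of groups (0.46 ± 0.10). It had -0.15, -0.20 and -0.15 on the arrays labelled CPSF3 knockdown, also above every control. EIF2B4 probe set 2545773 shifted by -0.68 ± 0.16. Its exon signal was 0.09, 0.19 and 0 on control arrays and -0.92, -0.28 and -0.54 on the RBFOX2 knockdown arrays. With -0.43, -0.54 and -0.40, the arrays labelled CPSF3 knockdown were below every control too. Between the targeted groups the 5 smallest p belonged to EIF2D probe sets 2452878 (0.60 ± 0.15) and 2452877 (0.51 ± 0.17), EIF4G2 probe set 3362788 (-0.91 ± 0.26), EIF3G probe set 3850052 (0.55 ± 0.18) and EIF4E3 probe set 2682116 (-0.46 ± 0.15).

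**Figure D4:**
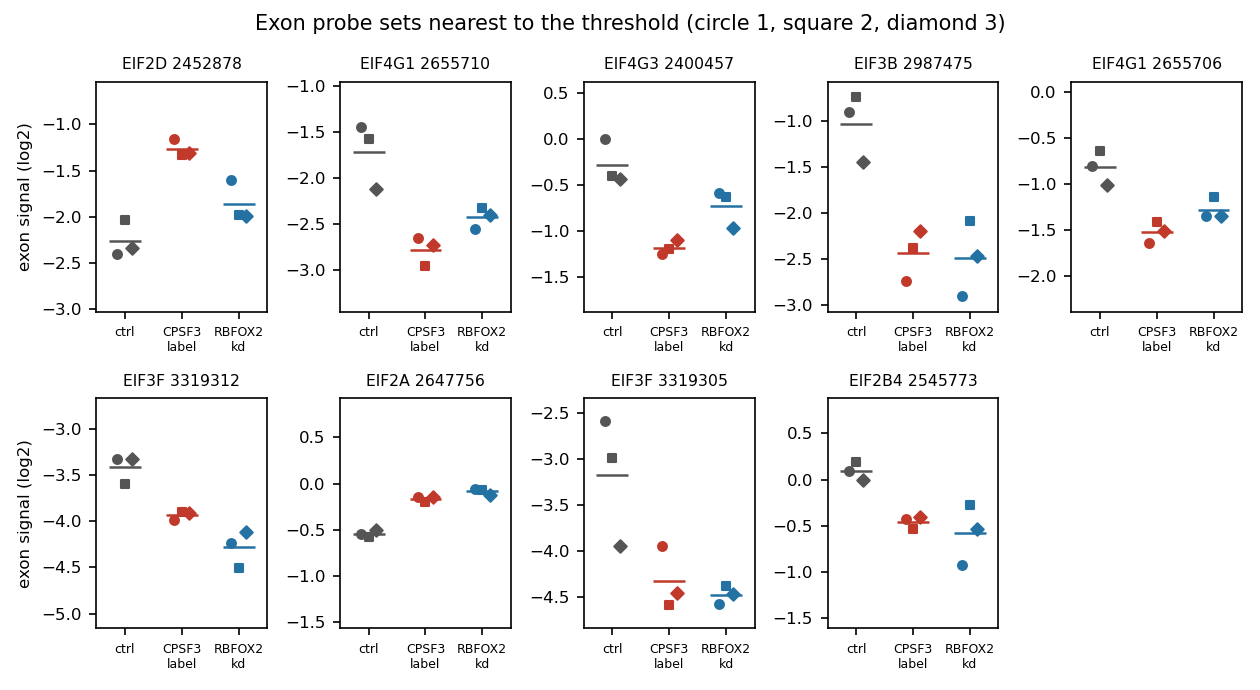
Exon signal (probe set minus gene level on the same array, log2, vertical axis) of the 9 member probe sets with the 5 smallest p in either comparison with control, for each array, with lines at the group means. The EIF2D probe set is higher on the arrays labelled CPSF3 knockdown, and the EIF3B probe set is lower on both targeted groups than on control.

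Many mRNAs of the translation apparatus begin with a C followed by an unbroken run of pyrimidines, a 5′ terminal oligopyrimidine tract, which lets mTOR signalling control their translation. The starts of the members were therefore read from the RefSeq promoter table for GRCh38.p14, on the strand of the gene, and a start was counted where the first base was C and at least 4 more C or T followed. Such a start was found at 4.07% of 35116 starts. Of the members 38 of 44 matched, 36 of them measured; EIF2S2, EIF3A, EIF3E, EIF3G, EIF3H and EIF3L have no entry. Such a start was present in 8 of the 36 measured members (22.2%), against 6.75% of 13164 measured genes with an entry. Their windows, from 20 bases before the start up to the 20th base of the transcript, are shown because the start is what the members are grouped by, and capitals mark the first transcribed base and the pyrimidine run that begins there.
EIF2A (chr3:150546767-150546806, plus strand): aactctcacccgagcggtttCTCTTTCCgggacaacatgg
EIF2D (chr1:206612446-206612485, minus strand): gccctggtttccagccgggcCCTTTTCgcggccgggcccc
EIF2S3 (chrX:24054936-24054975, plus strand): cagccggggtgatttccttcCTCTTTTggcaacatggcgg
EIF3D (chr22:36529147-36529186, minus strand): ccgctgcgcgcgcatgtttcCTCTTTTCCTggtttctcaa
EIF3F (chr11:7987317-7987356, plus strand): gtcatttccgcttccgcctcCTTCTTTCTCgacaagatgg
EIF3K (chr19:38619168-38619207, plus strand): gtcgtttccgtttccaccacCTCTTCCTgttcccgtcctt
EIF3M (chr11:32583811-32583850, plus strand): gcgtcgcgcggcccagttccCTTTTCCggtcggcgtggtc
EIF4B (chr12:53006436-53006475, plus strand): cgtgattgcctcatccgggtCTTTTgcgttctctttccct

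The called members lacked such a start in this table. The windows of EIF5B, EIF1, EIF5 and EIF4G3 are shown for comparison, the last 2 with both of their listed starts, and only the first base is in capitals because no run of this kind begins there.
EIF5B (chr2:99337369-99337408, plus strand): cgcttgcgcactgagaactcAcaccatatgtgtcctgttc
EIF1 (chr17:41688865-41688904, plus strand): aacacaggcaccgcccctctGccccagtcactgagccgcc
EIF5, first start (chr14:103334217-103334256, plus strand): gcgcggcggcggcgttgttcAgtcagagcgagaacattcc
EIF5, second start (chr14:103334868-103334907, plus strand): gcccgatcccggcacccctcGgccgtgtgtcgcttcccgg
EIF4G3, first start (chr1:21176878-21176917, minus strand): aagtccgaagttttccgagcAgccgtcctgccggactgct
EIF4G3, second start (chr1:21111364-21111403, minus strand): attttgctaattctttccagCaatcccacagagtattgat

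On the arrays labelled CPSF3 knockdown, 0 of the 8 members with a pyrimidine start were called by limma, and their differences lay between -0.24 and 0.20 with a median of -0.09. The other 28 members with an entry held all 9 calls, 8 higher and 1 lower, with a median of 0.22. Over all genes the pyrimidine starts had 57 rises and 55 falls among 888 genes and a median of -0.03, and the other starts 1366 rises and 502 falls among 12276 and a median of 0.02. On the RBFOX2 knockdown arrays the medians of the same members were -0.10 and 0.01. No test was made of these differences, since the split was made with the members' values known. Which start the cells used was not measured.

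Genes that act on initiation were measured beside the factors. Of 26 regulators 24 were measured, and on the arrays labelled CPSF3 knockdown 6 rose and 2 fell (25% and 8.33%, against 10.0% and 4.38% of all genes; median 0.20). MCTS1 and DENR, which act as a pair in reinitiation and recycling, rose by 0.86 ± 0.15 and 0.71 ± 0.12. The kinase MTOR rose by 0.71 ± 0.16, the RNA-activated eIF2 kinase EIF2AK2 by 0.68 ± 0.16, the eIF4E-binding repressor EIF4EBP2 by 0.65 ± 0.15 and the eIF4E transporter EIF4ENIF1 by 0.55 ± 0.13.

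The 2 falls were those of PPP1R15A and EIF4EBP1. PPP1R15A, the stress-induced subunit that directs a phosphatase to eIF2, was at 10.10, 9.96 and 9.29 on control arrays, 8.58, 8.88 and 8.69 on the arrays labelled CPSF3 knockdown and 8.92, 9.05 and 8.74 on the RBFOX2 knockdown arrays. Control replicate 3 was the lowest control, and all targeting hairpin arrays lay below it. The difference was -1.07 ± 0.18 (adjusted p = 0.0034, limma). EIF4EBP1, the main eIF4E-binding repressor, was at 10.73, 10.46 and 10.13 on control arrays and 9.88, 9.53 and 9.54 on the arrays labelled CPSF3 knockdown, without overlap (-0.79 ± 0.16). MCTS1 was at 0.06 in the setting that made it smallest and lost its call in 3 of 19 settings. Calls were also lost for EIF4ENIF1 in 4 settings, for EIF2AK2 and EIF4EBP2 in 3 each and for MTOR in 2 of 18, whereas DENR, EIF4EBP1 and PPP1R15A were called in all 19.

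Of the 11 elongation genes 0 rose and 2 fell, EEF1A2 (-0.45 ± 0.13) and DHPS (-0.42 ± 0.11), the enzyme that begins the hypusine modification of EIF5A, and the median was -0.14. The falls were 18.2% of the list, against 4.38% of all genes. EEF1A2 lost its call in 7 of 19 settings and DHPS in 4. Of 8 termination and recycling genes 6 were measured and 2 rose, ABCE1, which splits ribosomes after termination, and PELO, which rescues stalled ones (33.3%, against 10.0% of all genes). ABCE1 was at 9.51, 9.49 and 9.64 on control arrays, 10.56, 10.52 and 10.50 on the arrays labelled CPSF3 knockdown and 9.92, 9.69 and 10.31 on the RBFOX2 knockdown arrays. The 3 groups did not overlap, and the rise was 0.98 ± 0.14 (adjusted p = 0.00156, limma). PELO rose by 0.83 ± 0.12. On the RBFOX2 knockdown arrays 0 genes of the 3 lists were called by limma, with 3 of 24 regulators, 2 of 11 elongation genes and 2 of 6 termination and recycling genes at an unadjusted p under 0.05 (12.5%, 18.2% and 33.3%, against 13.6% of all genes).

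**Figure D5:**
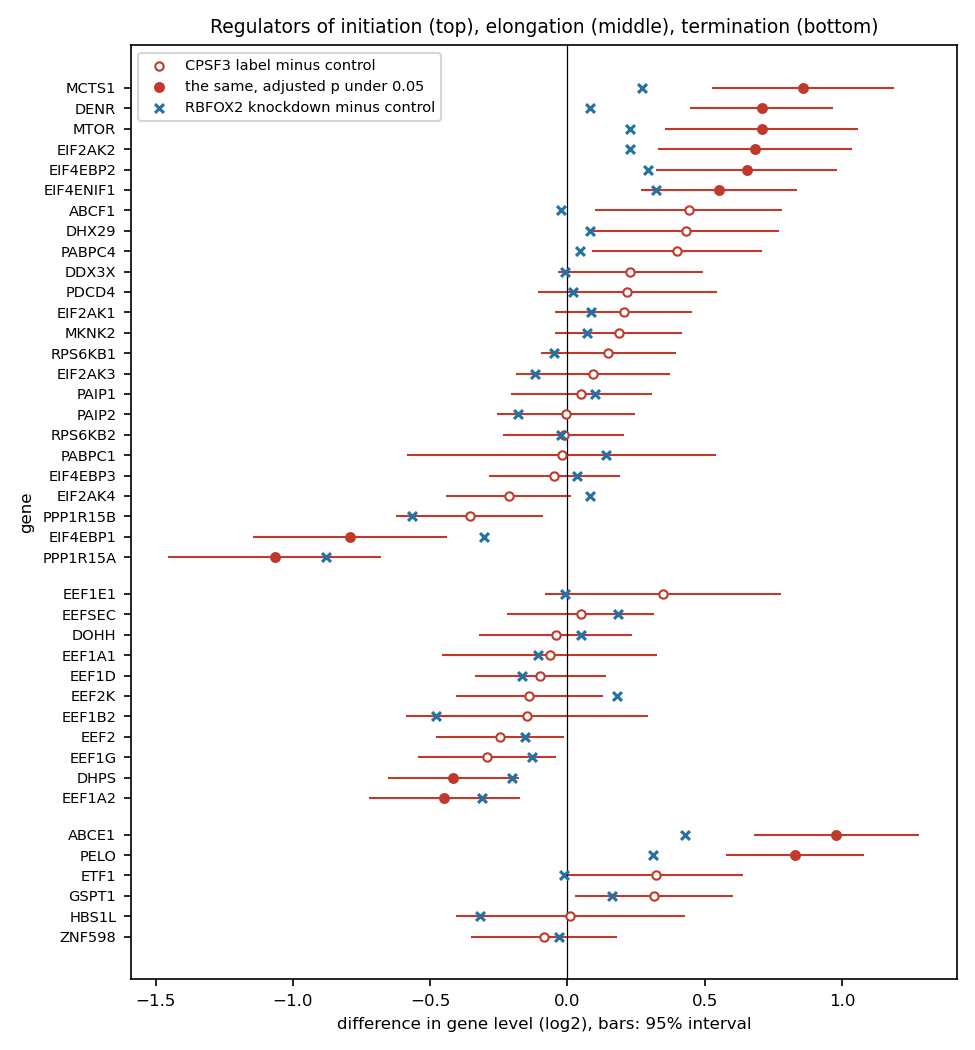
Differences in gene level from control (log2, horizontal axis) for 24 regulators of initiation, 11 elongation genes and 6 termination and recycling genes, with 95% intervals for the arrays labelled CPSF3 knockdown (circles, filled at an adjusted p under 0.05) and crosses for the RBFOX2 knockdown arrays. MCTS1, DENR, MTOR, EIF2AK2, EIF4EBP2, EIF4ENIF1, ABCE1 and PELO are filled to the right of 0, and EIF4EBP1, PPP1R15A, DHPS and EEF1A2 to the left.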

How the data were processed

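RNA of 9 samples was read on Affymetrix Human Exon 1.0 ST arrays. The authors deposited log2 signals per probe set. RMA, Affymetrix Power Tools and the build hg18 appear in the submitters' processing notes, and the series text gives the Exon Array Computational Tool, with versions not given in the sources used here. Since RMA equalises the arrays' distributions, a shift common to most genes is lost, and weak probe sets have compressed differences.

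Of 1384231 probe sets, 354600 had 1 symbol in the platform annotation. Symbols were updated through RefSeq: EIF2D is listed there under an older name and was added, and the Argonaute genes once named EIF2C were dropped. Probe sets with a mean of at least 6.97 were kept, with at least 3 per gene. All 9 arrays were fitted in 1 limma model (R 4.3.3, limma 3.58.1) of 3 groups without a block, 2-sided, adjusted over 16748 genes or 257548 exon probe sets. With 3 arrays against 3, the smallest p of an exact permutation test is 0.1. The number of arrays limits the precision. The fit was tested on simulated data with independent noise, where 200 of 16748 genes were changed on the arrays labelled CPSF3 knockdown. Against control it called 29% of the changes of 0.5 and 93% of the changes of 1, with 2 false calls. Called members are named with all their array values and other measured members with their difference. Members, lists and settings were chosen with earlier results of these data known. Further settings are given in the closing section. No array was left out.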

Additional observations from a re-analysis of the deposited data

Results flagged for a closer look

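Of the genes measured beside the initiation factors, 2 differed between the targeted groups themselves. They were 1 of 24 regulators (4.17%) and 1 of 8 markers of HEK293 cells, against 0.4% of all genes, and the other lists held 0. Other settings were tried for DENR and not for VIM. DENR, the partner of MCTS1, was at 8.98, 9.08 and 9.11 on control arrays, 9.72, 9.77 and 9.82 on the arrays labelled CPSF3 knockdown and 8.96, 9.10 and 9.37 on the RBFOX2 knockdown arrays. It was higher on the arrays labelled CPSF3 knockdown than on the RBFOX2 knockdown arrays by 0.63 ± 0.12 (adjusted p = 0.043, limma), in 3 of 3 arrays, and lost this call in 10 of 19 other settings (0.30 to 0.74). VIM, a cytoskeletal marker of HEK293 cells, was at 11.50, 11.28 and 11.26 on control arrays, 10.31, 10.33 and 10.23 on the arrays labelled CPSF3 knockdown and 10.96, 11.05 and 10.77 on the RBFOX2 knockdown arrays, and the difference between the targeted groups was -0.64 ± 0.12 (adjusted p = 0.0384, limma).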

How the results depend on the processing

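The other settings were leaving low probe sets in, keeping only those at or above 8.36 (the upper quartile), quantile normalisation, centred arrays, the mean as gene level, only the compared groups, a replicate block, a variance trend with robust fitting, array weights, platform symbols, and each array left out. No called value changed sign. Of all 42 measured members, called or not, 11 had no stable sign against control on the arrays labelled CPSF3 knockdown. The number was 17 on the RBFOX2 knockdown arrays and 18 between the targeted groups. EIF5A is not among the 11, since its sign turned only when shared probe sets were added, which is not counted here. The 9 called members against control on the arrays labelled CPSF3 knockdown became 4 without a filter and 16 with array weights, and 3 to 12 with 1 array left out (12 without control replicate 3). The number of all called genes moved the same way. It was 2409 of 16748 in the main setting, 1710 of 18589 without a filter and 4817 of 16748 with array weights. Without control replicate 3 it was 3429, and without CPSF3 replicate 1 it was 965. The share of members called without a filter (4 of 42) was close to that of all genes, unlike in the main setting. For the RBFOX2 knockdown arrays the 0 called members became 1 (EIF5) with the replicate block, 4 with array weights and 0 to 3 with 1 array left out. Of all 16748 genes 29 were called there in the main setting and 137 with the replicate block. With array weights 1513 were called, and 1546 without control replicate 3. Between the targeted groups the 0 called members became 1 (EIF4G2) with the upper-quartile filter, where 65 of 13906 genes were called. They became 1 with array weights, where 601 of 16748 genes were called, and 0 with 1 array left out. Called exon probe sets on the arrays labelled CPSF3 knockdown became 3 with the mean as gene level and 0 to 21 with 1 array left out, and on the RBFOX2 knockdown arrays 0 to 8, the highest without control replicate 3 in both. The cause was not tested, and the counts over all exon probe sets in these settings are not given here. The median difference with 1 array left out was 0.05 to 0.13, -0.084 to -0.0024 and 0.06 to 0.13 in the 3 comparisons. With the replicate block the 9 called genes on the arrays labelled CPSF3 knockdown were the same 9, and 0 members were called between the targeted groups. Same-numbered arrays correlated between -0.14 and 0.33 in their deviations from group means (over 0.1 in 3 of 9 pairs), so the numbers were not taken to pair the samples.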
